A study of Mus musculus with 6 samples.

Results

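The proteasome genes of cultured mouse hepatocytes were compared between cultures exposed to cyclosporin A (CsA) and cultures exposed to the vehicle DMSO. A gene was included when its platform symbol began with Psma, Psmb, Psmc, Psmd, Psme, Psmf or Psmg followed by a digit, which gave 42 of the 16331 rows in the table. Of the 42 genes, 40 encode subunits, assembly chaperones or regulators of the proteasome. The other 2, Psmc3ip and Psme3ip1, encode no subunit and were kept out of the subunit classes. Psmc3ip encodes a meiotic recombination factor, and Psme3ip1 encodes a protein that binds the activator PA28 gamma. Psma3, Psma4, Psma5, Psmb3, Psmb5, Psmc1, Psmd2, Psme2 and Psme2b were not analysed here.

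The hepatocytes came from male C57Bl6 mice, were kept between collagen layers in serum-free medium with insulin, glucagon and hydrocortisone, and carried no genetic change named in the labels. The CsA group was 3 cultures exposed to 10 µM CsA for 48 hours, and the DMSO group was 3 cultures with 0.5% DMSO for 48 hours. Each group had 3 arrays, and the labels speak of 3 independent experiments, each from a different animal. The 3 CsA titles carry the same prefix and the 3 DMSO titles carry 3 different ones. The labels leave the prefix unexplained, so p-values measure the spread between these arrays, whether or not they came from separate cultures. The labels do not say if DMSO was present in the CsA cultures too, or if a CsA and a DMSO culture shared an animal, so each difference is between cultures as labelled. CsA, used to prevent rejection of grafts, acts by binding cyclophilins, and the complex blocks the phosphatase calcineurin. The series asked how drugs that injure the liver change gene expression in such cultures.

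The proteasome degrades proteins tagged with ubiquitin. Its core is a barrel of alpha and beta rings with the cutting sites inside, and its regulatory particle is made of a ring of ATPases that unfold the substrate, other base subunits, and a lid that removes the ubiquitin chain. When cells meet interferon gamma, the inducible subunits encoded by Psmb8, Psmb9 and Psmb10 take the places of the standard cutting subunits in newly built cores. The resulting immunoproteasome is known for making peptides that are shown on MHC class I molecules.

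Values are log2 expression after RMA, and array medians lay between 6.70 and 6.78. Differences are CsA minus DMSO on that log2 scale with the standard error (SE) of the linear model in limma, and a gene was called higher or lower at a Benjamini-Hochberg adjusted p under 0.05 over all 16331 rows. Same-numbered arrays varied together, those numbered 2 least, so a second fit with the number as a block, called the replicate block, is given wherever it changes a call. No filter on low values was applied, so all 42 genes were tested. All 6 measured hepatocyte markers lay among the brighter 50% of rows, and 4 of them were lower in CsA, as given beside the immunoproteasome genes. All 24 measured markers of leukocytes lay among the dimmer 50% of rows and 12 of them among the dimmest 20%.

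In CsA cultures the immunoproteasome genes fell and parts of the standard proteasome rose. All 3 inducible core subunits and the activator gene Psme1 were lower, and 5 genes were higher: Psmc2 of the ATPase ring, Psmd7, Psmd8 and Psmd11 of the lid, and the assembly chaperone gene Psmg2. The other 33 genes did not pass. Over all rows 9.55% were called higher and 9.05% lower, and among the 7700 rows with a mean of at least 7 these shares were 16.4% and 13.8%, so the counts of 5 and 4 among 42 lie near the background and say nothing of the genes as one group. The median difference was 0.15 over the 42 genes, 0.04 over all rows and 0.09 over the rows with a mean of at least 7. With the replicate block 13 genes were higher and 4 lower, against 15.8% and 12.9% of all rows. Among the 7700 rows with a mean of at least 7 the block called 2031 higher and 1459 lower.

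The counts rest on few arrays. The 5 genes called higher became 1 when DMSO array 1 or 2 was left out, 10 when DMSO array 3 was, 3 when CsA array 1 or 3 was, and 2 when CsA array 2 was. The 4 called lower became 2 without DMSO array 2, 3 without DMSO array 3 or CsA array 1, and 1 without CsA array 2. Psmc2 and Psmb9 kept their calls without any 1 of the 6 arrays.

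**Figure D1:**
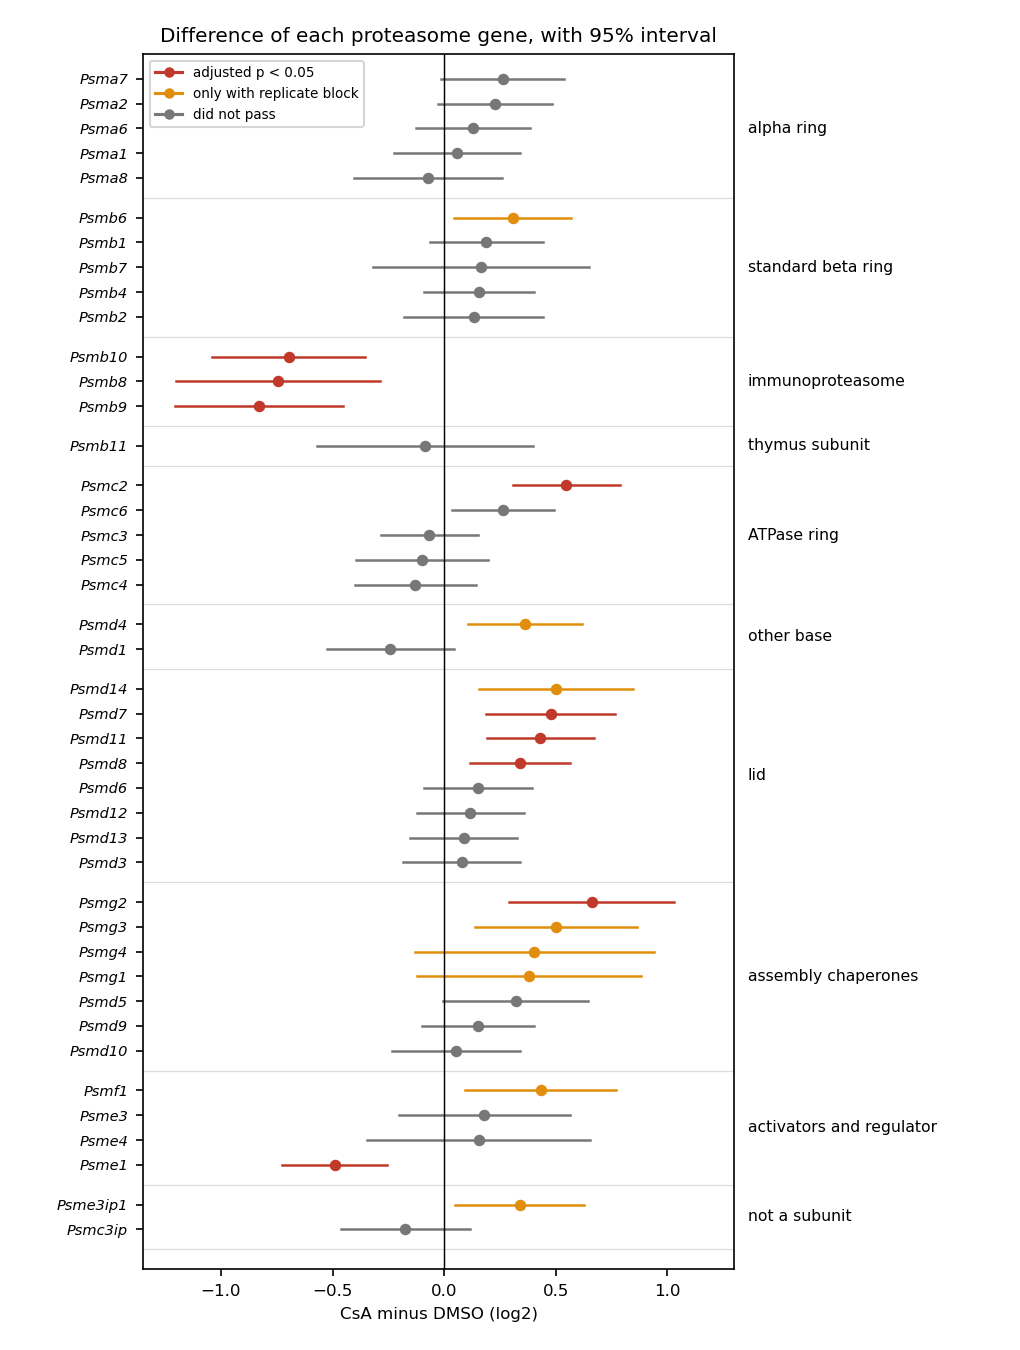
Difference of CsA minus DMSO (log2, x axis) for each of the 42 genes, grouped by place in the proteasome, with its 95% interval from limma. Psmb8, Psmb9, Psmb10 and Psme1 lie left of 0, and all 8 lid genes and all 7 assembly chaperone genes lie right of 0.

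The immunoproteasome fell as a set of 3. Psmb9, which encodes the inducible subunit that replaces the one encoded by Psmb6, was at 8.17, 8.14 and 8.62 in DMSO replicates 1, 2 and 3 and at 7.45, 7.28 and 7.71 in CsA. Every CsA array lay below every DMSO array, and the CsA level was 56.2% of that in DMSO (difference -0.83 ± 0.17, limma adjusted p = 0.00907). Psmb8, whose product replaces that of Psmb5, was at 8.22, 8.37 and 8.92 in DMSO and at 7.61, 7.61 and 8.05 in CsA. The groups did not overlap, and the CsA level was 59.7% of that in DMSO (-0.74 ± 0.20, limma adjusted p = 0.0333).

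Psmb10, whose product replaces that of Psmb7, was at 8.62, 8.90 and 9.19 in DMSO and at 8.15, 8.15 and 8.31 in CsA. Its groups did not overlap either, at 61.7% of the DMSO level (-0.70 ± 0.15, limma adjusted p = 0.0135). Replicate 3 was the highest array of its own group for all 3 genes. Each same-numbered pair gave a fall, from -0.47 for Psmb10 in pair 1 to -0.91 for Psmb9 in pair 3. Groups in which every CsA array lay below every DMSO array made up 15.3% of all rows and 1600 of the 7700 rows with a mean of at least 7. When 1 array was left out, Psmb8 did not pass if it was DMSO array 2 (adjusted p = 0.0703), DMSO array 3 (0.0592), CsA array 1 (0.106) or CsA array 2 (0.119). Psmb10 did not pass if it was DMSO array 2 (0.0515) or CsA array 2 (0.0567), and both genes stayed lower each time.

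Immune cells carry much immunoproteasome, and a bulk culture cannot tell fewer cells of a type from less RNA per cell. Of the 24 leukocyte markers, 1 was lower and 0 were higher in limma (1, Ncr1 of NK cells, at an unadjusted p under 0.05). This share of 4.17% stands beside 9.05% of all rows called lower and 9.55% called higher. Of the 1478 rows called lower, 1061 were among the 7700 rows with a mean of at least 7. All 24 markers had a mean below 7, where calls were rarer. The share of 4.17% therefore does not show that the markers fell less often than rows of a like level. The marker that fell was Vsig4 of Kupffer cells, from 5.36, 4.97 and 4.59 in DMSO to 4.21, 4.43 and 4.18 in CsA (-0.70 ± 0.18, adjusted p = 0.0311). The summed linear level of the 24 markers ran from 737 to 828 in DMSO and from 732 to 819 in CsA. The leukocyte marker Ptprc was between 2.88 and 3.77 on the 6 arrays, near the bottom of the scale. Vsig4 did not pass when any 1 array other than DMSO array 3 was left out.

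Markers of the hepatocytes themselves were lower as well, where limma called 9.05% of all rows lower and 13.8% of rows with a mean of at least 7. Of 6 measured, 4 were lower and 0 higher in limma (4 and 0 at an unadjusted p under 0.05): the fibrinogen gene Fgb (-2.41 ± 0.15, adjusted p = 4.97e-05), the antitrypsin gene Serpina1a (-2.03 ± 0.23, adjusted p = 0.000639), the apolipoprotein gene Apoa1 (-0.99 ± 0.23, adjusted p = 0.0181) and the transthyretin gene Ttr (-0.58 ± 0.12, adjusted p = 0.0118). Alb, the albumin gene, differed by -0.10 ± 0.10 and Tat by -0.19 ± 0.47. The summed linear level of the 6 ran from 105000 to 108000 in DMSO and from 63800 to 74400 in CsA. The 4 lower became 2, Fgb and Serpina1a, when DMSO array 2 or CsA array 2 was left out.

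Of 6 endothelial markers 1 was lower and 0 higher in limma (1 and 0 at an unadjusted p under 0.05), Stab2 (-0.52 ± 0.14, adjusted p = 0.0365), which passed only with all arrays or with DMSO array 2 left out. All 6 had a negative difference, as had 7135 of all 16331 rows. Their summed level ran from 241 to 316 in DMSO and from 236 to 272 in CsA. All 5 stellate cell and fibroblast markers were negative too and 0 passed in limma (0 at an unadjusted p under 0.05), with sums of 188 to 218 and 172 to 184. Of 3 cholangiocyte markers 0 passed in limma (1 at an unadjusted p under 0.05), with sums of 169 to 198 and 155 to 176, and Krt19 was lower with the replicate block (-0.48, adjusted p = 0.0314). Beside the counts of these lists, limma called 9.05% of all rows lower and 9.55% higher. Every gene of these lists had a mean below 7, where calls were rarer. Among rows with a mean of at least 7, limma called 13.8% lower and 16.4% higher. The part of these cell types, or of the fall in hepatocyte markers, in the fall of the immunoproteasome genes was not tested.

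Psme1 encodes PA28 alpha, a subunit of the interferon-inducible cap that opens the core and is known to work with the immunoproteasome. It was at 10.73, 10.75 and 10.86 in DMSO and at 10.33, 10.19 and 10.34 in CsA, with no overlap. The CsA level was 71.2% of that in DMSO (-0.49 ± 0.10, limma adjusted p = 0.0121), and it did not pass when CsA array 2 was left out (adjusted p = 0.0639). Other activators did not pass: Psme3, which encodes the nuclear PA28 gamma, differed by 0.18 ± 0.17, and Psme4, which encodes PA200, by 0.15 ± 0.22. For Psme4 replicate 3 was the lowest array of both groups, at 10.17 in DMSO and 10.24 in CsA.

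Of the standard cutting subunits, those encoded by Psmb6 and Psmb7 did not fall with their inducible counterparts, and Psmb5 was not analysed here. Psmb6 was at 12.46, 12.50 and 12.74 in DMSO and at 12.86, 12.81 and 12.96 in CsA, all 3 CsA arrays above all 3 DMSO arrays. Its difference of 0.31 ± 0.12 did not pass in limma (adjusted p = 0.102) and passed with the replicate block (adjusted p = 0.0423). Psmb7 was at 12.17, 12.24 and 12.74 in DMSO and at 12.26, 12.41 and 12.97 in CsA, with overlapping groups and replicate 3 highest in both. It differed by 0.17 ± 0.21 (adjusted p = 0.685).

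The change of an inducible subunit was set directly against that of the subunit it replaces, within each array. Psmb9 minus Psmb6 moved from -4.26 ± 0.13 in DMSO to -5.39 ± 0.14 in CsA (SD, n = 3 each), and this difference of -1.14 corresponds to a 2.20-fold shift away from the inducible subunit. Psmb10 minus Psmb7 moved from -3.48 ± 0.12 to -4.34 ± 0.29 (SD, n = 3 each), a difference of -0.86 or 1.82-fold. The CsA arrays lay below the DMSO arrays in both pairs. The exact two-sided permutation test gave p = 0.1 for each pair, adjusted p = 0.1 over the 2 pairs, which is the smallest p that 3 against 3 arrays allow. Only the shift between groups can be read from such a difference, since the levels of separate probe sets are not comparable.

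**Figure D2:**
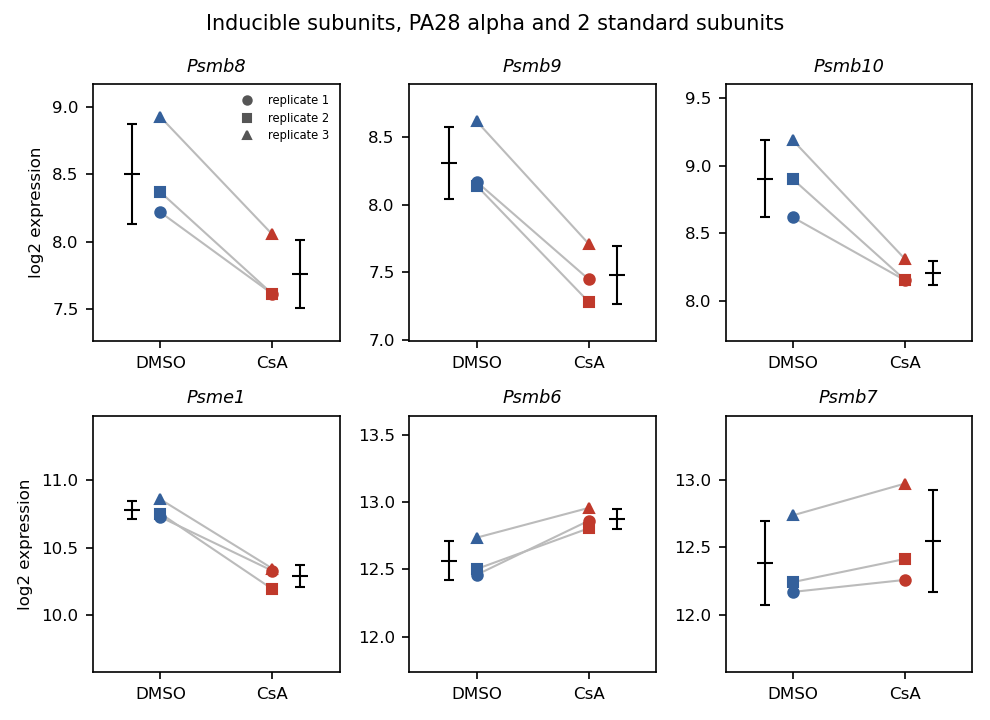
Log2 expression (y axis, each panel spanning the same range) of Psmb8, Psmb9, Psmb10, Psme1, Psmb6 and Psmb7 on the 3 DMSO and 3 CsA arrays. Grey lines join same-numbered arrays, and bars beside the points give the mean ± SD of 3 arrays. In the first 4 panels all CsA points lie below all DMSO points, while Psmb6 and Psmb7 show a rise in each of the 3 pairs.

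Of the inducible genes, Psmb8 and Psmb9 stand close to genes of peptide supply, while Psmb10 lies elsewhere, on chromosome 8, and Psme1 on chromosome 14. In the RefSeq annotation of GRCm38.p6, Psmb9, Tap1, Psmb8 and Tap2 follow one another on chromosome 17, where Tap1 and Tap2 encode the transporter that carries peptides to MHC class I molecules. The promoter windows of Psmb9 and Tap1, taken from 250 bases before to 50 after each start, face opposite ways and share 275 of 300 bases. Tap1 was at 8.42, 8.43 and 8.48 in DMSO and at 8.09, 8.35 and 8.39 in CsA. Its difference of -0.17 ± 0.11 did not pass (limma adjusted p = 0.371), and neither did that of Tap2 at -0.21 ± 0.17 (adjusted p = 0.470). Whether Psmb9 and Tap1 differ in their change was not tested.

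Promoters of 3 genes that fell, Psmb8, Psmb9 and Psme1, and of Psmb6, the standard counterpart of Psmb9, are shown because the inducible genes are known targets of interferon signalling. The sequences are from RefSeq, GRCm38.p6, written 5′ to 3′ with the gene, and capitals mark every match to the searched motifs on either strand.
Psmb8, chr17:34197945-34198244, strand +: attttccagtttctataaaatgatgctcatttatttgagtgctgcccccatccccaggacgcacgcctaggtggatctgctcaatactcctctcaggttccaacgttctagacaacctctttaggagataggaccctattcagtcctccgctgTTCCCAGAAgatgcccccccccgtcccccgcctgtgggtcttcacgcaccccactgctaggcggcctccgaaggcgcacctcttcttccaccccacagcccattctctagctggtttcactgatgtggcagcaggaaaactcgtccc
Psmb9, chr17:34187281-34187580, strand -: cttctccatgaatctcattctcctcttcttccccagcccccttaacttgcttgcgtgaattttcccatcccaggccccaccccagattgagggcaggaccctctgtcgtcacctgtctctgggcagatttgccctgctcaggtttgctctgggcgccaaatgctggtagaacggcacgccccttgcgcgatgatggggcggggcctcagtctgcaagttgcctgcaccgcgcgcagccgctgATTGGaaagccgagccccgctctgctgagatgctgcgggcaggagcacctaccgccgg
Psme1, chr14:55578244-55578543, strand +: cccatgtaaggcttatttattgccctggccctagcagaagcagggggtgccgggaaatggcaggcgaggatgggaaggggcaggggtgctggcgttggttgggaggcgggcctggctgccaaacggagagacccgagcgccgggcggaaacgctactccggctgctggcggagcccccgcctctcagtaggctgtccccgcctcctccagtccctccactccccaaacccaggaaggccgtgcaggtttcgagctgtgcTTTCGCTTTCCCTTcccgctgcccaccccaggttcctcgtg
Psmb6, chr11:70525107-70525406, strand +: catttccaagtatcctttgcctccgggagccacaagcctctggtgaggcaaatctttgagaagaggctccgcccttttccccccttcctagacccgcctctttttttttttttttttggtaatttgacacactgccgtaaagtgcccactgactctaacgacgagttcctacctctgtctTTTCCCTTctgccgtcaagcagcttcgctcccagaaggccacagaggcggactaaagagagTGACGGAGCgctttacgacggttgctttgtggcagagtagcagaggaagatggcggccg

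The motifs searched were the STAT site TTCNNNGAA, the core AANNGAAA bound by interferon regulatory factors (IRF), the antioxidant element TGACNNNGC, the CCAAT box and the ATF4 element TGATGNAA. The capitals in Psmb8 are a STAT site and those in Psmb9 a CCAAT box read on the other strand. Those in Psme1 are 2 IRF cores on the other strand that overlap each other just after the start. Those in Psmb6 are an IRF core on the other strand and, nearer the start, an antioxidant element. Of 32851 promoter windows of the same length, 8.30% held the STAT site, 23.9% the IRF core, 12.4% the antioxidant element, 37.4% a CCAAT box and 3.97% the ATF4 element. Among the 32 subunit, chaperone and regulator genes with a promoter in the table, 2 held the STAT site (Psmb8 and Psmg1) and 5 the antioxidant element (Psmb6, Psmc6, Psmd9, Psmd12 and Psme4). The IRF core was found in 11, a CCAAT box in 11 and the ATF4 element in 1, Psmd13. A match describes letters in this window only, and Psmb10 held none of the 5 motifs there.

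In the standard core, small positive differences did not pass 1 by 1. The alpha ring, which gates the barrel, had 5 measured genes, of which 0 were called in limma, 0 at an unadjusted p under 0.05. Psma7 had the largest difference of the ring, at 12.16, 12.09 and 12.35 in DMSO and at 12.34, 12.43 and 12.62 in CsA. The groups overlapped by a narrow margin, and the difference of 0.26 ± 0.12 did not pass (adjusted p = 0.182). Psma2 differed by 0.23 ± 0.11, Psma6 by 0.13 ± 0.11 and Psma1 by 0.06 ± 0.12. Psma8, which encodes the testis form of an alpha subunit, was between 4.82 and 5.30 and differed by -0.07 ± 0.15.

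In the standard beta ring 0 of 5 genes were called in limma, 1 at an unadjusted p under 0.05 and 1 with the replicate block, both times Psmb6. Besides Psmb6 and Psmb7, the structural subunit genes Psmb1, Psmb2 and Psmb4 differed by 0.19 ± 0.11, 0.13 ± 0.14 and 0.16 ± 0.11. Leaving out the testis form, all 9 standard core genes had a positive difference, from 0.06 to 0.31, and all 9 were higher in each of the 3 same-numbered pairs. Over all rows 56.3% had a positive difference, over rows with a mean of at least 7 it was 58.6%, and 32.8% of all rows were higher in all 3 pairs. Of the 7700 rows with a mean of at least 7, 3449 were higher in all 3 pairs. The thymus subunit gene Psmb11 was between 4.28 and 5.02 on the 6 arrays and differed by -0.09 ± 0.21.

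In the ATPase ring, whose 6 related subunits pull substrates into the core, 1 of 5 measured genes was called higher in limma. This share of 20% lies near the 16.4% of rows with a mean of at least 7, and 9.55% of all rows were called higher. Psmc2 was at 11.86, 11.77 and 11.95 in DMSO and at 12.45, 12.32 and 12.45 in CsA. The groups lay well apart, at 1.46-fold (0.55 ± 0.11, limma adjusted p = 0.00802). Psmc6 had its CsA arrays above its DMSO arrays too, but its difference of 0.26 ± 0.10 did not pass (adjusted p = 0.109). The others were just below 0, with -0.07 ± 0.10 for Psmc3, -0.10 ± 0.13 for Psmc5 and -0.13 ± 0.12 for Psmc4. All 3 were lower in each same-numbered pair, and Psmc3 had its CsA arrays below its DMSO arrays. The ring's genes thus did not share 1 direction, and whether Psmc2 differs from the rest of the ring was not tested.

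Of the other base subunits, Psmd4, which encodes a ubiquitin receptor, was at 11.38, 11.37 and 11.58 in DMSO and at 11.72, 11.80 and 11.90 in CsA. All CsA arrays were above the DMSO arrays, and the difference of 0.36 ± 0.11 missed the threshold in limma (adjusted p = 0.0543) and passed with the replicate block (adjusted p = 0.0211). Psmd1, which encodes a large scaffold of the base, had its CsA arrays below its DMSO arrays. It ran from 11.61 to 11.90 in DMSO and from 11.32 to 11.57 in CsA, and its difference of -0.24 ± 0.13 did not pass (adjusted p = 0.239).

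The lid had 3 of 8 genes called higher and 0 lower in limma (0 lower also at an unadjusted p under 0.05), with a median difference of 0.25, and 4 higher with the replicate block. The share called was 37.5%, against 9.55% of all rows, 16.4% of rows with a mean of at least 7 and, with the block, 15.8% of all rows. Among the 7700 rows with a mean of at least 7 the block called 2031 higher. The count of 3 became 0 when DMSO array 1 or 2 or CsA array 2 was left out, 2 when CsA array 1 was, 1 when CsA array 3 was and 4 when DMSO array 3 was. Psmd7, which encodes the partner of the deubiquitinase in the lid, was at 11.11, 11.12 and 11.34 in DMSO and at 11.50, 11.66 and 11.84 in CsA. The groups did not overlap, at 1.39-fold (0.48 ± 0.13, limma adjusted p = 0.0318). Psmd11, a scaffold subunit known for its part in assembling the regulatory particle, was at 11.74, 11.62 and 11.78 in DMSO and at 12.06, 12.13 and 12.24 in CsA. It too showed no overlap, at 1.35-fold (0.43 ± 0.11, adjusted p = 0.0232).

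Psmd8, another lid scaffold, was at 13.72, 13.78 and 13.85 in DMSO and at 14.12, 14.12 and 14.15 in CsA. Its arrays were tightly grouped near the top of the scale, without overlap, at 1.27-fold (0.34 ± 0.10, limma adjusted p = 0.0430). Psmd14, which encodes the deubiquitinase that cuts the chain off the substrate, was at 12.47, 12.38 and 12.70 in DMSO and at 12.83, 12.93 and 13.30 in CsA. With no overlap and 1.42-fold it had the largest difference of the lid, 0.50 ± 0.15, but just missed the threshold (adjusted p = 0.0511), and it passed with the replicate block (adjusted p = 0.00763). Psmd6, Psmd12, Psmd13 and Psmd3 differed by 0.15 ± 0.11, 0.12 ± 0.11, 0.09 ± 0.10 and 0.08 ± 0.12.

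Among the assembly chaperones, which help build the particle and then leave it, 1 of 7 was higher in limma and 4 with the replicate block, and the median difference was 0.38. The limma share of 14.3% lies near the 16.4% of rows with a mean of at least 7. The 4 with the block stand beside 15.8% of all rows and 2031 of the 7700 rows with a mean of at least 7. The 4 genes of the chaperones that build the alpha ring, Psmg1 to Psmg4, were all higher with the block. Psmg2 was at 10.35, 10.67 and 10.87 in DMSO and at 11.21, 11.14 and 11.53 in CsA. Its groups did not overlap and its 1.58-fold rise was the largest of the 42 genes (0.66 ± 0.16, limma adjusted p = 0.0231). Psmg2 did not pass when DMSO array 1 (adjusted p = 0.0733), DMSO array 2 (0.0688), CsA array 1 (0.0519) or CsA array 3 (0.0519) was left out.

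Psmg3 was at 9.69, 9.88 and 10.18 in DMSO and at 10.27, 10.31 and 10.66 in CsA, without overlap. Its difference of 0.50 ± 0.16 passed with the block (adjusted p = 0.00616) and not without it (adjusted p = 0.0620). Psmg4 was at 9.88, 9.99 and 10.59 in DMSO and at 10.25, 10.43 and 11.00 in CsA. These groups overlapped, with replicate 3 high in both, while the 3 pairs rose by a like amount, 0.37, 0.43 and 0.41. Its difference was 0.40 ± 0.24, with an adjusted p of 0.298 without and 0.0131 with the block.

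Psmg1 was at 10.04, 10.21 and 10.65 in DMSO and at 10.52, 10.38 and 11.13 in CsA, again overlapping with replicate 3 high in both groups. It differed by 0.38 ± 0.22 (limma adjusted p = 0.296 without and 0.0299 with the block). The chaperones of the ATPase ring, encoded by Psmd5, Psmd9 and Psmd10, differed by 0.32 ± 0.14, 0.15 ± 0.11 and 0.05 ± 0.13 and passed in neither fit. All 7 chaperone genes were higher in each of the 3 pairs, against 32.8% of all rows and 3449 of the 7700 rows with a mean of at least 7.

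Psmf1 encodes PI31, a protein that binds the core and inhibits it in the test tube. It was at 7.31, 7.82 and 7.73 in DMSO and at 7.99, 7.99 and 8.17 in CsA. The groups did not overlap, and the difference of 0.43 ± 0.15 passed with the block (adjusted p = 0.0291) and not in limma without it (adjusted p = 0.0780). Psme3ip1, no subunit, was at 9.60, 9.76 and 9.99 in DMSO and at 10.03, 10.19 and 10.15 in CsA. It did not overlap either and differed by 0.34 ± 0.13 (adjusted p = 0.102 without and 0.0414 with the block). Psmc3ip differed by -0.17 ± 0.13 and did not pass.

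**Figure D3:**
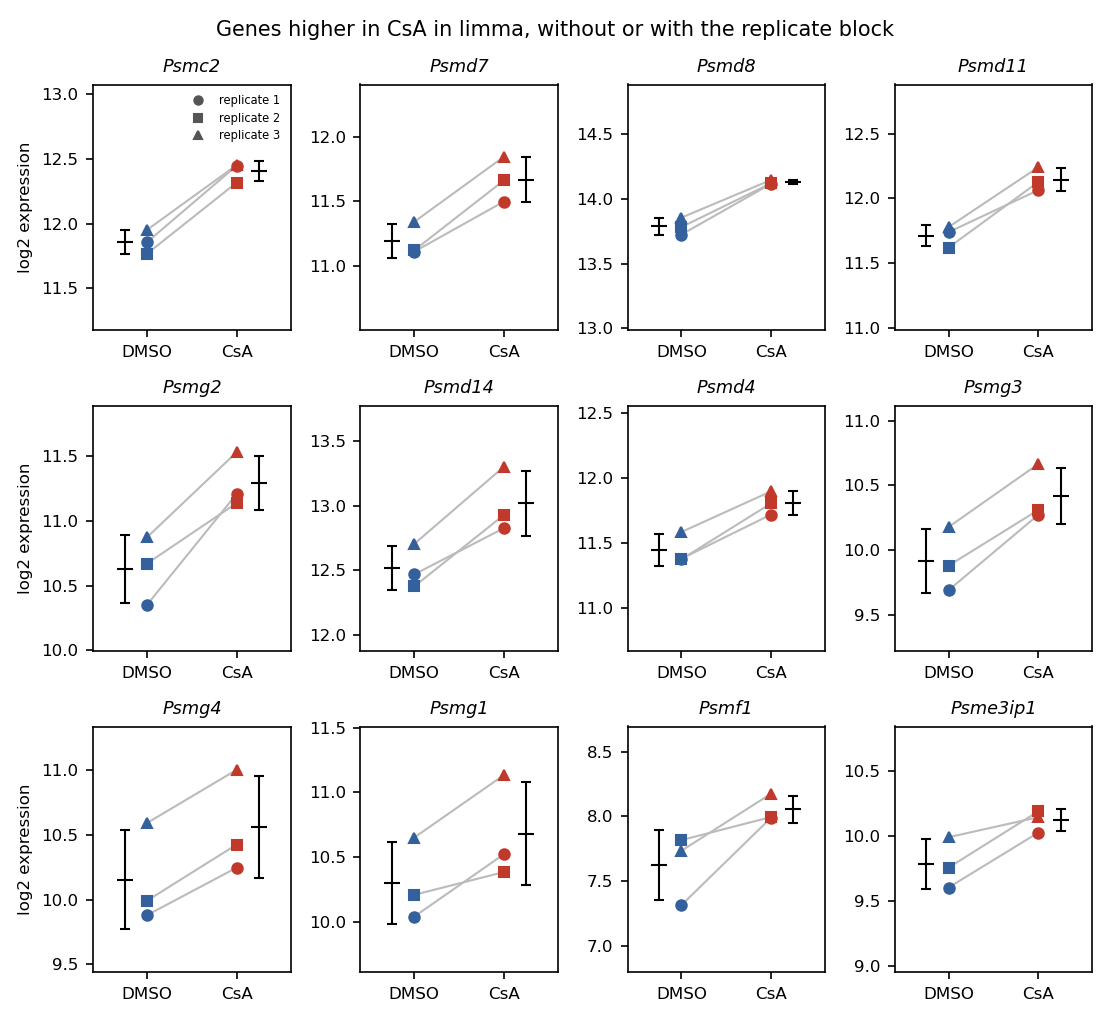
Log2 expression (y axis, each panel spanning the same range) on the 3 DMSO and 3 CsA arrays for the 5 genes called higher and 7 of the 8 called higher only with the replicate block, the eighth being Psmb6. Grey lines join same-numbered arrays, and bars give the mean ± SD of 3 arrays. Every pair rises, and for Psmg1 and Psmg4 replicate 3 is high in both groups.

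Over the 42 genes the CsA arrays lay wholly above the DMSO arrays in 15 and wholly below in 6, against 19.8% and 15.3% of all rows. Among the 7700 rows with a mean of at least 7 they lay wholly above in 2263 and wholly below in 1600. In the 3 same-numbered pairs 29 genes were higher each time and 9 lower each time, against 32.8% and 24% of all rows. Of the 7700 brighter rows, 3449 were higher each time and 2339 lower each time. The median over the 42 genes was 0.17 in each of the 3 pairs.

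Factors that work with the proteasome but lie outside the symbol rule included some that rose. Of 19 measured, 4 were higher and 0 lower in limma (8 and 0 at an unadjusted p under 0.05), 6 were higher with the replicate block, and the median was 0.26. Higher calls made up 9.55% of all rows, 16.4% of rows with a mean of at least 7 and 15.8% of all rows with the block, so the share of 21.1% without the block lies near that of the brighter rows. With the block 2031 of those 7700 brighter rows were called higher. Zfand2a, which encodes a stress-induced zinc finger protein that binds the regulatory particle, was at 8.95, 8.94 and 9.13 in DMSO and at 10.99, 10.73 and 10.82 in CsA. This 3.58-fold rise (1.84 ± 0.12, limma adjusted p = 4.68e-05) was larger than that of any of the 42 genes. Zfand5, which encodes a protein that stimulates the proteasome, rose 2.00-fold (1.00 ± 0.14, adjusted p = 0.00156), Akirin2, which encodes a factor that brings proteasomes into the nucleus, 1.68-fold (0.75 ± 0.11, adjusted p = 0.00232) and Ubxn1 1.39-fold (0.48 ± 0.12, adjusted p = 0.0253). The core assembly factor gene Pomp differed by 0.11 ± 0.12 and the small lid subunit gene Sem1 by 0.25 ± 0.10, and neither passed. Of the ubiquitin supply genes 1 was measured, the activating enzyme gene Uba6, at 0.36 ± 0.27.

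The transcription factors NRF1 and NRF2 are known to raise proteasome genes, NRF1 when proteasome activity falls short. Of 13 measured genes of their control, 5 were higher and 3 lower in limma, where 9.55% and 9.05% of all rows were. Among rows with a mean of at least 7 these shares were 16.4% and 13.8%. Nfe2l1, which encodes NRF1, was at 9.68, 9.58 and 9.63 in DMSO and at 9.98, 10.02 and 9.75 in CsA, and its difference of 0.29 ± 0.11 did not pass (adjusted p = 0.114). Nfe2l2, which encodes NRF2, was at 12.66, 13.13 and 12.56 in DMSO and at 11.77, 11.93 and 12.14 in CsA. It fell to a level without overlap (-0.84 ± 0.17, limma adjusted p = 0.00955). Bach1, a repressor at the same sites, rose 1.95-fold (0.96 ± 0.13, adjusted p = 0.00172), and the small MAF partners Maff and Mafg rose 2.53-fold (1.34 ± 0.21, adjusted p = 0.00309) and 1.72-fold (0.78 ± 0.13, adjusted p = 0.00364). The other genes called lower in limma were Ngly1 (-0.61 ± 0.12, adjusted p = 0.00998) and the dim Nfe2l3 (-0.43 ± 0.12, adjusted p = 0.0350).

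Genes of MHC class I antigen supply moved in both directions. Of 11 measured, 1 was higher and 0 lower in limma (3 and 1 at an unadjusted p under 0.05). Over all rows limma called 9.55% higher and 9.05% lower, and 16.4% and 13.8% of rows with a mean of at least 7. The replicate block gave 4 higher and 1 lower, against 15.8% and 12.9% of all rows. Of the 7700 rows with a mean of at least 7 the block called 2031 higher and 1459 lower. The gene lower with the block was Erap1, which encodes an enzyme that trims peptides (-0.49, adjusted p = 0.00631 with and 0.0736 without the block), lower in all 3 pairs. Tap1, Tap2 and Tapbpl had differences of -0.17, -0.21 and -0.26 and did not pass. Higher only with the block were H2-D1 (0.31, adjusted p = 0.0344), Canx (0.67, adjusted p = 0.00159) and Pdia3 (0.55, adjusted p = 0.0138), each in all 3 pairs. H2-K1 differed by 0.20 and did not pass. Whether this list and the immunoproteasome genes differ in their change was not tested. The 1 called in limma was Calr (0.74 ± 0.14, adjusted p = 0.00760), a chaperone of the endoplasmic reticulum that also serves other proteins. B2m, which encodes the light chain of MHC class I, differed by 0.10 ± 0.10. The count of 1 higher became 4 when CsA array 3 was left out.

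The interferon list was split. Of 13 measured genes 3 were higher and 3 lower in limma, against 9.55% and 9.05% of all rows. With the replicate block 4 were higher and 5 lower, against 15.8% and 12.9% of all rows. Among the 7700 rows with a mean of at least 7 the block called 2031 higher and 1459 lower. Irf1, which encodes a transcription factor known to induce Psmb8, Psmb9 and Psmb10, was at 8.77, 8.74 and 9.02 in DMSO and at 8.28, 8.26 and 8.59 in CsA. It fell in every pair without overlap (-0.47 ± 0.13, limma adjusted p = 0.0406). Ifit2 fell by 1.04 and Stat2 by 0.68 on the log2 scale (adjusted p = 0.0264 and 0.0271), while the chemokine gene Cxcl10 and the antiviral gene Rsad2 rose 29.6-fold and 14.6-fold (adjusted p = 0.00013 and 2.69e-05). The 3 lower became 0 when DMSO array 1 or 2 was left out, 1 when CsA array 1 was and 2 when any of the other 3 arrays was. The 3 higher became 4 when CsA array 3 was left out and 2 when any of the other 5 arrays was.

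**Figure D4:**
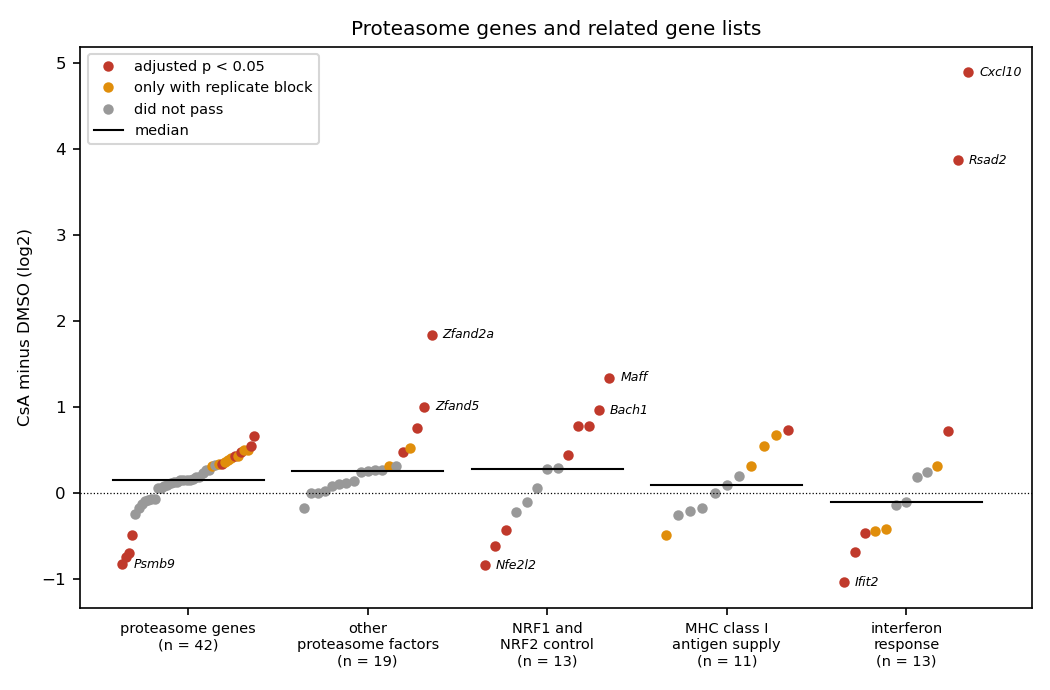
Difference of CsA minus DMSO (log2, y axis) of the 42 proteasome genes and of the measured genes of 4 related lists, each point a gene and each bar a median. The proteasome genes span -0.83 to 0.66, a narrower range than the interferon list, whose highest points are Cxcl10 and Rsad2.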

How the data were processed

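Gene expression was measured on 6 arrays, 3 per group, hybridised with biotin-labelled cRNA after the Affymetrix protocol, per the labels. The deposited values are log2 expression values that the authors made in R 2.11.0 by RMA, as the submitters' processing notes list. RMA makes the arrays' distributions alike, so a change in total RNA per cell is removed. The table held 16331 rows from 2.44 to 15.3. The platform's gene table named 15136 rows, 1195 stayed unnamed, and no probe set of a proteasome gene was checked for shared hybridisation. The precision is limited by the number of arrays.

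CsA was compared with DMSO in all rows with limma 3.58.1 in R 4.3.3 (lmFit, eBayes, no covariate, two-sided, tested on simulated data), with Benjamini-Hochberg adjustment. Deviations from the group means of same-numbered arrays correlated at 0.398, 0.242 and 0.499 across rows, and with the labels' 3 animals the numbers were taken as pairing. Arrays of unlike number ran from -0.496 to 0.22. The highest of these, DMSO array 2 with CsA array 1, was close to the value for the arrays numbered 2. The block fit is the alternative. The 3 CsA titles share 1 prefix while each DMSO title has its own, so a shared animal is an inference, and separate CsA cultures rest on the labels' protocol alone. The 2 pairs of inducible and standard subunits were tested by exact permutation over arrays. The planned comparison of Psmb8 with Psmb5 was not made, since Psmb5 was not analysed here.

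The members and lists were chosen with earlier results of these data known. Values on every array are given for genes called in either fit, the inducible and standard cutting subunits, Psme1, and the gene with the largest difference in each class. From each related list up to 4 called genes with the smallest adjusted p are named, beside others singled out after their values were seen (Nfe2l1, Nfe2l2, Nfe2l3, Ngly1, Pomp, Sem1, Uba6, Tap1, Tap2, B2m, H2-D1, H2-K1, Canx, Pdia3, Irf1, Stat2, Ifit2, Tapbpl, Erap1, Vsig4, Ncr1, Ptprc, the hepatocyte markers, Stab2, Krt19). Promoter motifs were chosen after the values were seen. Alternatives covered the prior variance, array weights, normalization, filters on dim rows, rows per gene, the threshold and single arrays left out. The fit without either array numbered 3 was chosen after seeing the data.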

Additional observations from a re-analysis of the deposited data

How the results depend on the processing

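The 5 genes called higher became 13 with the replicate block, 12 with array weights or without both arrays numbered 3, 8 after centring on array medians or without the dimmest 50% of rows, and 1 at an adjusted p under 0.01. The 4 called lower became 1 at an adjusted p under 0.01. Leaving out 1 array gave 1 to 10 higher and 1 to 4 lower. With the replicate block the calls of all 9 genes stayed, and 8 more genes were higher. Psmb9 minus Psmb6 ran from -1.21 to -1.07 and Psmb10 minus Psmb7 from -0.98 to -0.70 without 1 array, and the sign-flip test over the 3 pairs of the replicate block gave an exact p of 0.25, the smallest it allows. Signs reversed for 7 genes that were not called: Psma8 with array weights (0.017) and without both arrays numbered 3 (0.083), and, when 1 array was left out, Psma8 (-0.17 to 0.070), Psmb11 (-0.28 to 0.11), Psmd10 (-0.042 to 0.13), Psme4 (-0.029 to 0.38), Psmb7 (-0.047 to 0.34), Psmd3 (-0.0055 to 0.13) and Psma1 (-0.035 to 0.13). Of 711 values of single genes under the alternatives, 631 kept direction and side of the threshold, 39 newly passed, 30 no longer passed and 11 reversed. The median difference of all rows was 0.04, and 0.09 after centring.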
